A study of Mus musculus with 20 samples.

Results

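The adrenergic receptors are the G protein-coupled receptors through which noradrenaline and adrenaline act on cells. The genes considered here were Adra1a, Adra1b, Adra1d, Adra2a, Adra2c and Adrb1, with Adra2a set against the others. A probe set, the group of probes that stands for 1 transcript on the array, could be named for 3 of these 6 genes, out of 28767 probe sets in all. These were Adra2a (probe set 10464030), Adra2c (10521383) and Adra1b (10385353). Adra2c and Adra1b were named from the annotation of the platform, whereas Adra2a had no symbol there and was named from the transcript list of the study itself. Adra1a, Adra1d and Adrb1 were not analysed here. The receptors were selected on the group differences of Adra2a in these arrays, that is, on the same log2 values given below, so the levels and group differences of the receptors are a description and carry no test.

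The RNA came from the left and right amygdalae of 20 male mice on a C57BL/6 background (C57BL/6J in the methods), with each array holding the RNA of 1 mouse and 5 mice in every one of the 4 groups. KO stress and KO con mice lacked the serotonin transporter (5-HTT, gene Slc6a4) in all cells from conception, and WT stress and WT con mice were wild-type descendants of heterozygous parents as well. Stressed mice spent 1 min in water, of 22 °C by the labels and slightly cooler by the methods, and control mice spent 1 min in the home cage, and tissue was taken within minutes. All 20 mice were housed singly, were tested on the elevated plus-maze at 7 months of age, and were killed under isoflurane.

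Noradrenaline reaches the amygdala through fibres of brainstem neurons, chiefly those of the locus coeruleus, and is released there during arousal and stress. The alpha-2 receptors encoded by Adra2a and Adra2c couple to Gi/o proteins, which lower cyclic AMP, open potassium channels and, on noradrenergic terminals, hold back further release. The alpha-1 receptor encoded by Adra1b couples to Gq and phospholipase C, whereas beta receptors couple to Gs and raise cyclic AMP. In a tissue sample, the mRNA measured comes from cells whose bodies lie in the amygdala, so receptor mRNA of locus coeruleus neurons is largely outside it.

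Array medians ranged between 6.59 and 6.82 on the log2 scale and pairs of arrays correlated at 0.948 to 0.996. WT stress replicate 1 (median correlation 0.961) and WT con replicate 1 (0.978) correlated least with the other arrays. The second lay close to WT stress replicates 4 (0.980) and 3 (0.981). WT stress replicate 1 and WT con replicate 1 are called below the 2 arrays that stand apart. The probe set of Slc6a4 averaged 8.28 ± 0.11 in KO stress and 6.39 ± 0.10 in WT stress, and 8.16 ± 0.03 in KO con and 6.62 ± 0.75 in WT con (SD, n = 5 each). It was thus higher, not lower, in the arrays labelled KO (difference over both conditions 1.71, SE 0.16, limma, Benjamini-Hochberg adjusted p = 0.000115). The sources used here do not tell whether its probes cover the deleted stretch, so the value does not check the knockout. All 10 arrays labelled KO lay above all 10 labelled WT, of which WT con replicate 5, at 7.82, came nearest to them. KO and WT below are the genotypes that the labels give.

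Adra2a, the alpha-2A receptor, had log2 values of 6.92, 7.80, 7.53, 7.81 and 7.61 in KO stress, against 6.11, 6.69, 6.68, 6.79 and 6.72 in WT stress. Every KO stress array was above every WT stress array, with a gap of 0.13 between the lowest of the first and the highest of the second. Over all probe sets, 103 (0.358%) showed the same separation in this direction. The means were 7.53 ± 0.36 in KO stress and 6.60 ± 0.28 in WT stress, a difference of 0.94 (SE 0.30) or 1.91-fold.

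In the control condition Adra2a had log2 values of 6.52, 7.20, 7.53, 7.98 and 6.48 in KO con, against 6.47, 7.27, 7.93, 7.78 and 7.02 in WT con. These groups overlapped over nearly their whole range. Their means were 7.14 ± 0.65 in KO con and 7.29 ± 0.59 in WT con, a difference of -0.15 (SE 0.30) that is smaller than its error. Without KO con replicate 5 the difference was 0.01, so that not even its sign was settled.

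Within the WT genotype, Adra2a was lower after stress, by -0.69 (SE 0.30). One WT stress array lay below all WT con arrays, and 4 of 5 WT con arrays lay above all WT stress arrays. The exception was WT con replicate 1 at 6.47, 1 of the 2 arrays that correlated least with the others. Within the WT pairs of the same replicate number, Adra2a was lower after stress in 5 of 5, by differences between -1.26 and -0.30. What a shared number means is not stated, so these pairs are uncertain. The count comes from the values on which Adra2a was selected, so it is a description and supports nothing. Within the KO genotype the difference between stress and control ran the other way, at 0.39 (SE 0.30), with overlapping groups: 1 KO con array lay above all KO stress arrays and 2 lay below them. Single KO con arrays moved this value, to 0.23 when replicate 5 was left out, 0.24 when replicate 1 was and 0.60 when replicate 4 was. The difference between these 2 stress effects, the interaction of genotype and stress, was 1.09 (SE 0.42). The comparisons share arrays, since WT stress enters both the genotype difference after stress and the stress difference in WT, and its low values count in both. The means of KO stress, KO con and WT con lay within 0.39 of each other, and WT stress lay below all of them.

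**Figure D1:**
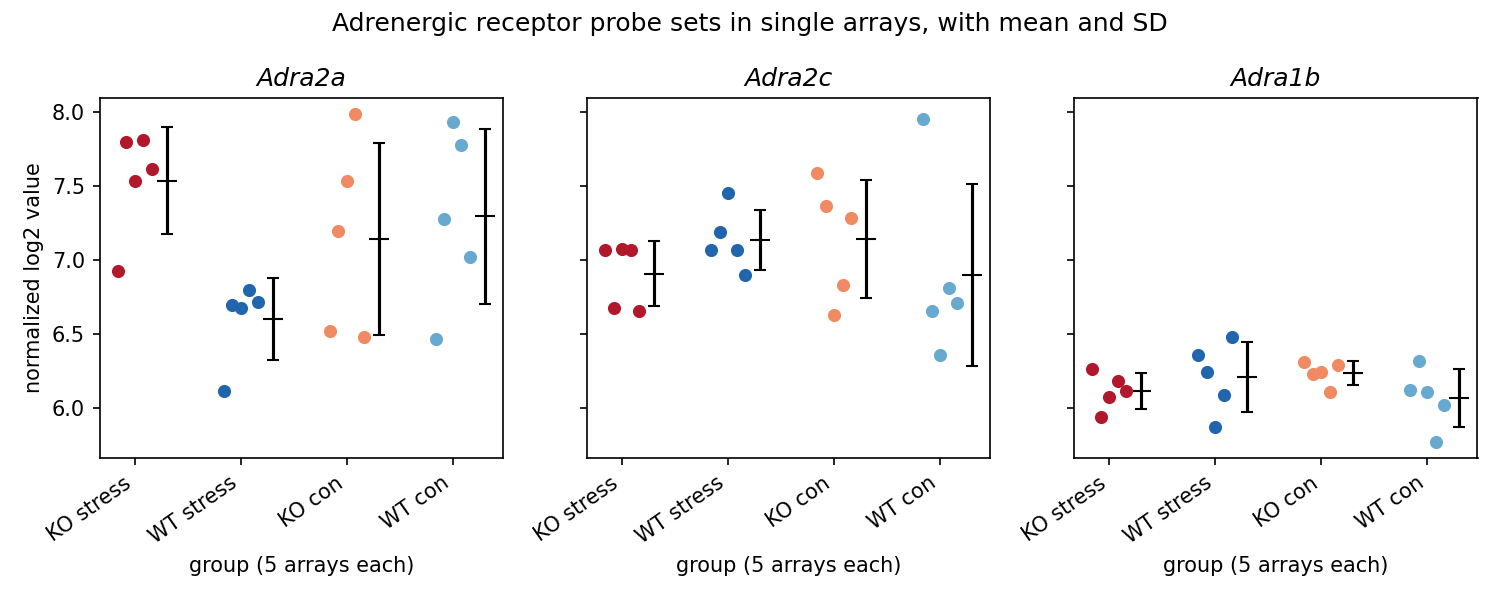
Normalized log2 values of Adra2a, Adra2c and Adra1b in single arrays (points, replicates 1 to 5 side by side) with mean and SD (black), by group along the horizontal axis. The 5 KO stress arrays of Adra2a lie between 6.92 and 7.81 and the 5 WT stress arrays between 6.11 and 6.79. Levels of different probe sets are not comparable.

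Adra2c, the alpha-2C receptor, had log2 values of 7.07, 6.67, 7.07, 7.07 and 6.65 in KO stress, against 7.07, 7.19, 7.45, 7.07 and 6.89 in WT stress. In KO con its values were 7.59, 7.36, 6.63, 6.83 and 7.28, against 7.95, 6.65, 6.35, 6.81 and 6.71 in WT con. All groups overlapped, and 4 arrays shared 1 value of 7.0664. The highest value of all belonged to WT con replicate 1. The means were 6.91 ± 0.22 in KO stress and 7.13 ± 0.21 in WT stress, and after the control condition 7.14 ± 0.40 in KO con and 6.90 ± 0.62 in WT con.

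The 4 group differences of Adra2c all had a size between 0.23 and 0.24 with an SE of 0.24, and each had the sign opposite to that of Adra2a. KO stress minus WT stress was -0.23 and WT stress minus WT con was 0.24, while KO stress minus KO con was -0.23 and KO con minus WT con was 0.24. The interaction was -0.47 (SE 0.34). Single arrays moved these values by more than 1.5 times. Without WT con replicate 1, WT stress minus WT con was 0.50 and KO con minus WT con was 0.51, and without WT con replicate 3 they were 0.10 and 0.11. KO stress minus KO con was -0.12 without KO con replicate 1 and -0.36 without KO con replicate 3, and KO stress minus WT stress was -0.15 without WT stress replicate 3.

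Adra1b, the alpha-1B receptor, varied least. Its log2 values were 6.26, 5.94, 6.07, 6.18 and 6.12 in KO stress, against 6.36, 6.24, 5.87, 6.08 and 6.48 in WT stress. They were 6.31, 6.23, 6.24, 6.11 and 6.29 in KO con, against 6.12, 6.32, 6.11, 5.77 and 6.02 in WT con. The groups overlapped in every comparison. The means were 6.11 ± 0.12 in KO stress and 6.21 ± 0.24 in WT stress, and after the control condition 6.23 ± 0.08 in KO con and 6.07 ± 0.20 in WT con. The differences were -0.09 for KO stress minus WT stress, 0.14 for WT stress minus WT con, -0.12 for KO stress minus KO con and 0.17 for KO con minus WT con (SE 0.11 each). The interaction was -0.26 (SE 0.15). With 1 array left out, KO stress minus WT stress ranged between -0.18 and -0.03, with replicates 3 and 5 of WT stress left out at these ends. WT stress minus WT con ranged between 0.07 (without WT con replicate 4) and 0.23 (without WT stress replicate 3). KO con minus WT con was 0.09 without WT con replicate 4, and KO stress minus KO con was -0.08 without KO stress replicate 2.

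**Figure D2:**
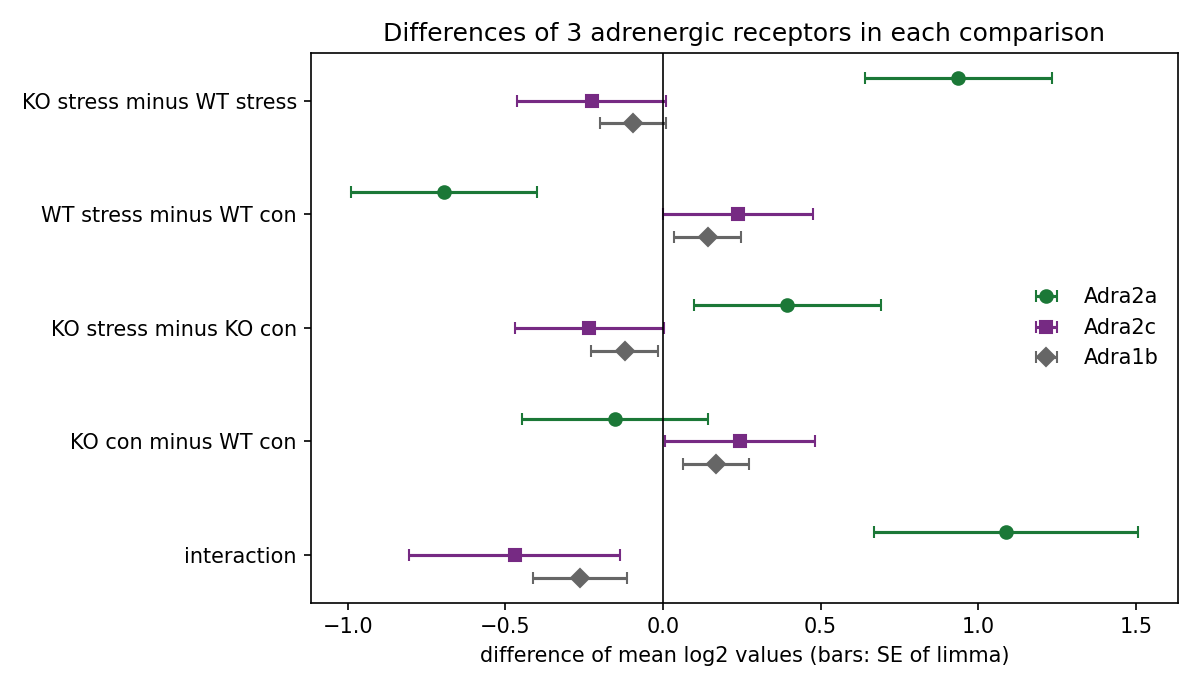
Differences of mean log2 values (horizontal axis) of Adra2a, Adra2c and Adra1b in each comparison (vertical axis), with bars of 1 SE from limma over 20 arrays. Adra2a lies at 0.94 in KO stress minus WT stress and at -0.69 in WT stress minus WT con, and the other receptors lie within 0.24 of 0 in all 4 group comparisons.

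The criterion of the study was a change of more than 1.5-fold together with an unadjusted p of less than 0.05, and Adra2a met it here with limma in 3 comparisons. In KO stress minus WT stress it was 1 of 3 receptors, where 221 probe sets (0.768%) met it and 100 (0.348%) were higher. In WT stress minus WT con it was again 1 of 3, where 69 probe sets (0.24%) met it and 5 (0.0174%) were lower. In the interaction it was 1 of 3, against 0.591% of all probe sets. None of the 3 receptors met it in KO stress minus KO con (0.139% of probe sets) or KO con minus WT con (0.0487%). Because Adra2a was chosen for these values, nothing is read from the counts. No receptor passed an adjusted p of 0.05 in any comparison with limma or with the methods' t-test, where limma called 1 of all probe sets (0.00348%) in KO stress minus WT stress, 1 (0.00348%) in KO minus WT over both conditions and 0 elsewhere. At an unadjusted p under 0.05 both tools counted 1 receptor in KO stress minus WT stress (9.28% of probe sets with limma) and 1 in WT stress minus WT con (3.54%), and limma 1 in the interaction (2.52%). Neither tool counted any in KO stress minus KO con (1.13%) or KO con minus WT con (3.57%).

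Leaving out single arrays moved the 2 differences of Adra2a to different degrees. Only the 10 arrays of a comparison can move its difference. KO stress minus WT stress ranged between 0.81 and 1.09 with 1 of its arrays left out and met the study's criterion in 10 of 10 such fits. WT stress minus WT con ranged between -0.90 and -0.53 and met the criterion in 7 of 10. Since Adra2a was selected on these values, the counts describe how far single arrays carry them and support nothing. It missed the criterion without WT stress replicate 1 (-0.57) and when WT con replicate 3 (-0.53) or replicate 4 (-0.57) was left out. Without WT con replicate 5, the WT array nearest to KO in its Slc6a4 value, WT stress minus WT con was -0.76 and KO con minus WT con was -0.22. Without both arrays that stand apart, KO stress minus WT stress was 0.81 and WT stress minus WT con was -0.78.

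**Figure D3:**
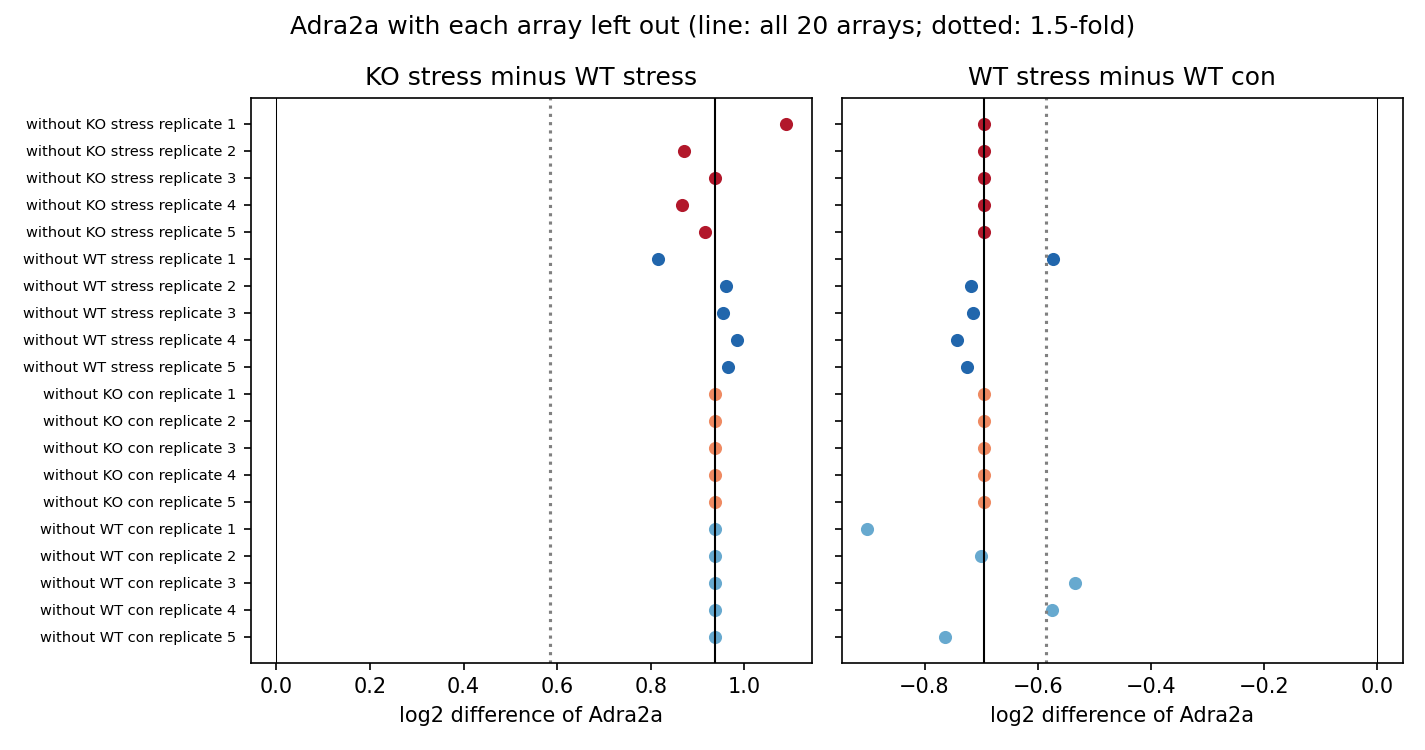
Log2 difference of Adra2a (horizontal axes) with each of the 20 arrays left out in turn (rows, coloured by the group of the array left out). The solid line is the value from all arrays and the dotted line is a 1.5-fold difference. The 10 arrays outside a comparison leave its difference where it is. All values of KO stress minus WT stress lie beyond the dotted line, and 3 of WT stress minus WT con do not.

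Adra2a also varied widely among mice of the same group. The SD within groups, pooled over the 4 groups, was 0.50 for Adra2a, larger than for 96.6% of all probe sets. It was 0.40 for Adra2c (larger than 93.7%) and 0.17 for Adra1b (larger than 47.7%), with a median of 0.18 over all probe sets. Adra2a differed by more than 1 log2 unit among arrays of KO con and among arrays of WT con.

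These deviations from the group means were set against each other and against marker scores of 11 cell types, each the mean of its centred marker genes, in 36 relations over 20 arrays. P-values come from 100000 permutations within groups and are adjusted over the 36. Adra2a and Adra2c deviated in opposite directions (Pearson's r = -0.68, permutation p = 0.0076, adjusted p = 0.0912; Spearman's rho = -0.64, permutation p = 0.0138, adjusted p = 0.165). The relation did not pass the adjustment, and r was -0.57 without the 2 arrays farthest from the median and -0.63 without the 2 arrays that stand apart. It was -0.21 over the 10 stress arrays and -0.79 over the 10 control arrays, a difference that was not tested. The relations of Adra1b did not pass it either, with r = -0.40 to Adra2a (rho = -0.44, permutation p = 0.0646 and 0.055, adjusted p = 0.388 and 0.33) and r = -0.02 to Adra2c (rho = 0.04, permutation p = 0.943 and 0.87, adjusted p = 0.97 and 0.884). Without the 2 farthest arrays these r were -0.38 and 0.09.

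Of the 36 relations 1 passed the adjustment, that of Adra2c to the score of striatal and central amygdala neurons, 8 genes such as Drd1 (a dopamine receptor) and Ppp1r1b (the phosphoprotein DARPP-32). Here r was 0.75 (permutation p = 0.00043, adjusted p = 0.0155) and rho 0.72 (permutation p = 0.00042, adjusted p = 0.0151), and r was 0.67 without the 2 farthest arrays and 0.72 without the 2 that stand apart. Adra2a ran against the same score (r = -0.61, permutation p = 0.00651, adjusted p = 0.0912; rho = -0.61, permutation p = 0.00394, adjusted p = 0.0709), with r = -0.49 without the 2 farthest arrays. The score of single arrays lay either between -1.25 and -0.37 below the mean of its group (8 arrays) or between 0.08 and 1.46 above it (12 arrays). Adra2c was below its own group mean in all 8 of the low arrays and in 3 of the 12 high ones. Within the 12 high arrays r of Adra2c with the score was 0.77 (rho 0.49), and 0.48 (rho 0.34) without WT con replicate 1, the array farthest out. Within the 8 low arrays r was -0.34 (rho -0.45), so the relation was not seen there. With 8 arrays and a split made after seeing the data, this does not show that the relation was absent. For Adra2a, r was -0.53 (rho -0.32) within the 12, -0.31 (rho -0.12) without WT con replicate 1, and 0.31 (rho 0.29) within the 8.

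**Figure D4:**
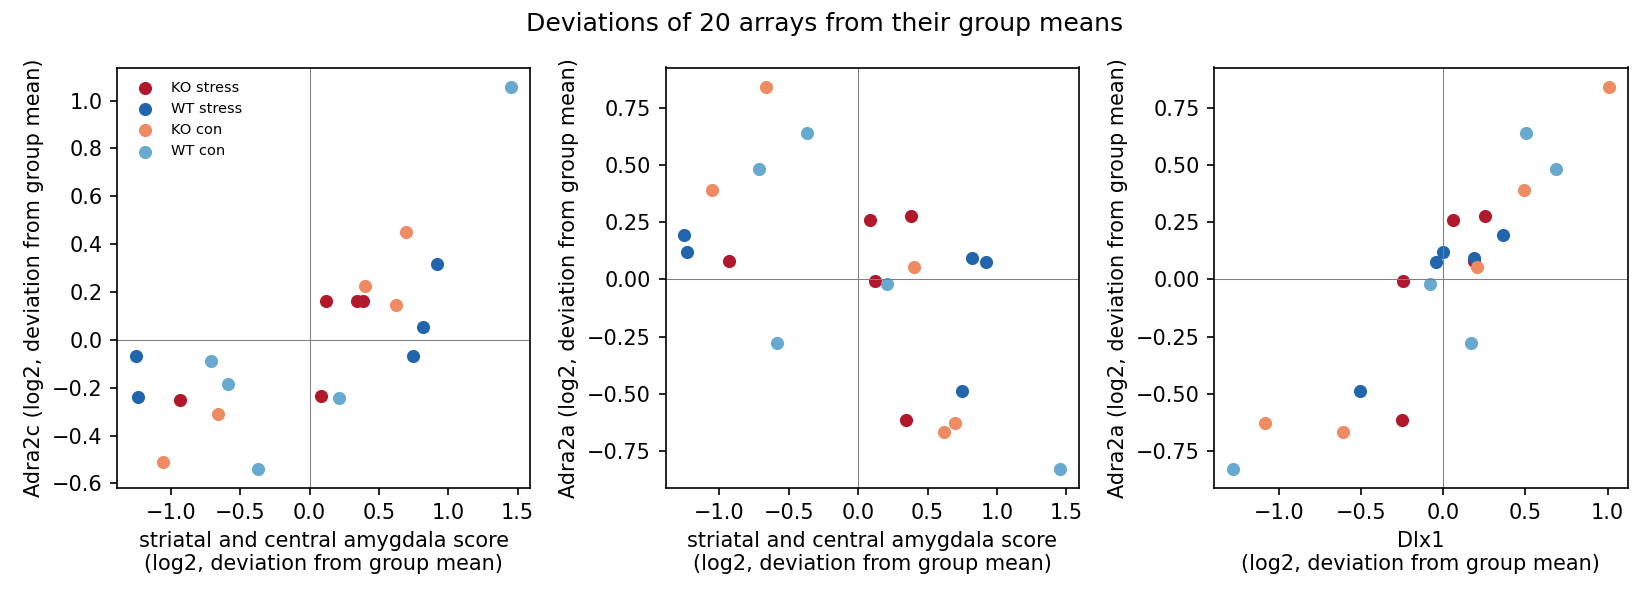
Deviations of single arrays from their group means on the log2 scale, with Adra2c (left) and Adra2a (middle) against the score of striatal and central amygdala neurons and Adra2a against Dlx1 (right). Points are the 20 arrays, coloured by group. Adra2c runs with the score (r = 0.75), Adra2a against it (r = -0.61), and Adra2a runs with Dlx1 (r = 0.91).

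Among 14958 probe sets with 1 symbol and a mean log2 value of 6 or more, the deviations most like those of Adra2a over the 20 arrays were those of Mob3b (r = 0.92), Spns2 (0.92), Dlx1 (0.91), Cotl1 (0.91) and Nfia (0.91). Dlx1 encodes a homeobox factor of GABAergic interneurons and their precursors, Spns2 a transporter of sphingosine-1-phosphate, Cotl1 an actin-binding protein and Nfia a transcription factor of the nuclear factor I family. The deviations most opposed to Adra2a were those of Kif17 (-0.90), a kinesin motor of dendrites, Pdrg1 (-0.88), Phf24 (-0.87), Sbsn (-0.85) and Dtnb (-0.85), a dystrobrevin. Adra2c was most like Slc17a8 (0.88), the vesicular glutamate transporter VGLUT3, and Ppp1r1b (0.88), which is also in the striatal score. Adra1b was most like Kcnk4 (0.77), a potassium channel, and Ywhah (0.76), a 14-3-3 protein. These correlations are the extremes of a ranking and are given as a description.

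Dlx1 also differed between the groups much as Adra2a did. It averaged 9.73 ± 0.24 in KO stress and 8.78 ± 0.33 in WT stress, a difference of 0.95 (SE 0.36, limma, adjusted p = 0.53), and its range of 9.48 to 9.99 in KO stress did not reach that of 8.27 to 9.14 in WT stress. Over all probe sets, 0.358% showed such a separation in this direction. The WT stress minus WT con difference of Dlx1 was -0.66 (SE 0.36, limma, adjusted p = 1). Spns2, by contrast, followed Adra2a from mouse to mouse but not between the groups, with -0.04 (SE 0.12) in KO stress minus WT stress and 0.00 (SE 0.12) in WT stress minus WT con. In the same order, Mob3b differed by 0.71 and -0.53, Cotl1 by 0.44 and -0.32, and Nfia by 0.26 and 0.03. The opposed Kif17 (-0.35 and 0.31), Phf24 (-0.39 and 0.45) and Dtnb (-0.35 and 0.27) differed the reverse way. Pdrg1 (-0.06 and -0.08) and Sbsn (-0.16 and -0.02) differed less. None of these genes passed the adjusted test in these comparisons.

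Marker lists of several cell populations leaned to the positive or the negative side in KO stress minus WT stress. Over all probe sets, 11873 of 28767 had positive differences in this comparison (median -0.03). Of 9 GABAergic markers 6 had positive differences (median 0.32). Of these, 3 had an unadjusted p under 0.05, against 3.05% of all probe sets in this direction: Dlx1, Dlx5 (0.80), a related homeobox gene, and Slc32a1 (0.46), the vesicular GABA transporter. Without WT stress replicate 1 these 3 differences were 0.83, 0.58 and 0.39. Other GABAergic markers differed the other way, such as Pvalb (-0.66), the calcium-binding protein parvalbumin, and the neuropeptide Npy (-0.44). The score of the list ranged between -0.06 and 0.18 in KO stress and between -0.57 and 0.32 in WT stress. All 7 thalamic markers had positive differences (median 0.50), led by Calb2 (0.98) and Slc17a6 (0.91), the vesicular glutamate transporter VGLUT2, with scores between -0.34 and 0.82 in KO stress and between -1.28 and 1.02 in WT stress. Of 9 markers of pallial excitatory neurons 8 had negative differences (median -0.36), with scores between -0.61 and 0.38 in KO stress and between -0.36 and 1.13 in WT stress, and the defining factor Neurod6 differed by -1.34 (limma, adjusted p = 0.53). The probe set of Neurod6 had a low mean of 5.73, against a median of 6.72 over all values. Striatal markers did not lean to either side (4 of 8 positive, median -0.03).

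Markers of non-neuronal cells and of hypothalamic neurons also leaned to the positive side in this comparison. Markers of meninges and fibroblasts were positive in 10 of 10 (median 0.44), led by Dcn (0.86), the proteoglycan decorin, with scores between -0.24 and 1.42 in KO stress and between -0.43 and 0.37 in WT stress. Choroid plexus markers were positive in 7 of 8 (median 0.56), with Ttr, the carrier transthyretin, at 1.78 and scores between -0.56 and 1.96 in KO stress and between -1.10 and 2.76 in WT stress. Astrocyte markers were positive in 7 of 8 (median 0.16), among them the glutamate transporter Slc1a3 (0.39) and the gap junction gene Gja1 (0.34), with scores between -0.04 and 0.41 in KO stress and between -0.67 and 0.31 in WT stress. Hypothalamic and medial amygdala markers were positive in 11 of 14 (median 0.26), with scores between -0.23 and 0.63 in KO stress and between -0.67 and 0.36 in WT stress. Calb2 is in this list as well as in the thalamic one, so the lists are not independent. Endothelial (4 of 6), oligodendrocyte (5 of 6) and microglial markers (4 of 7) had medians of 0.19, 0.03 and 0.05. From mouse to mouse within groups, Pearson's r of Adra2a with the score was 0.28 (GABAergic), 0.30 (thalamic), 0.02 (pallial) and -0.25 (hypothalamic and medial amygdala). For the other lists it was -0.06 (choroid plexus), 0.28 (meninges), 0.28 (astrocytes), 0.37 (endothelium), 0.43 (oligodendrocytes) and 0.01 (microglia). None of these passed the adjustment over the 36 relations.

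In WT stress minus WT con the pallial, thalamic and GABAergic lists lay the other way round. Over all probe sets, 18059 of 28767 were positive here (median 0.03), against 11873 in KO stress minus WT stress. Of the pallial markers 8 of 9 were positive (median 0.57), while 1 of 7 thalamic (-0.49) and 3 of 9 GABAergic markers (-0.32) were. The striatal markers, which leaned to neither side above, were positive in 8 of 8 (0.43). Choroid plexus markers were positive in 6 of 8 (0.37), meningeal ones in 6 of 10 (0.05) and astrocyte ones in 2 of 8 (-0.10). The meningeal count was near the share over all probe sets. No marker of the pallial, striatal, thalamic and GABAergic lists passed the adjusted test of limma in these 2 comparisons. With the striatal score as a covariate, KO stress minus WT stress of Adra2a was 0.95 (SE 0.24) and WT stress minus WT con was -0.56 (SE 0.25), which is under 1.5-fold. With the pallial score as a covariate they were 0.95 and -0.71, the second no longer at an unadjusted p under 0.05, and with the hypothalamic score 1.04 and -0.71. The part of the GABAergic, thalamic, choroid plexus, meningeal and astrocyte lists in the Adra2a difference was not tested. In bulk tissue, fewer cells that carry a receptor and less of its mRNA per cell cannot be told apart.

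Genes that make, transport or break down noradrenaline, or that act downstream of its receptors, were followed as 7 lists with 54 measured genes. No gene passed an adjusted p of 0.05 in any of 7 comparisons with limma, nor with the methods' t-test in the 4 group comparisons. In KO stress minus WT stress, 35 of 54 had positive differences (median 0.09, against -0.03 over all probe sets). At an unadjusted p under 0.05 limma counted 5 higher and 0 lower and the methods' t-test counted 3. Over all probe sets 878 (3.05%) were higher and 1792 lower at this p. With WT stress replicate 1 left out, 30 of 54 were positive in this comparison. The unstressed groups leaned the same way, with 40 of 54 positive in KO con minus WT con (median 0.10, against 0.00 over all probe sets). In KO minus WT over both conditions, 43 of 54 had positive differences (median 0.10, against -0.01 over all probe sets), and 7 higher and 0 lower had an unadjusted p under 0.05, against 4.71% of all probe sets that were higher and 12% in either direction.

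The Gi/o proteins, through which alpha-2 receptors signal, were positive in 5 of 5 genes in KO stress minus WT stress (median 0.36). Gnai2 differed by 0.36 (SE 0.12), Gnai1 by 0.44 (SE 0.18) and Gnaz by 0.36 (SE 0.16), each with an adjusted p of 0.53 by limma. Gnai3 (0.22) and Gnao1 (0.05), the most abundant brain Go subunit, differed less. In WT stress minus WT con all 5 were negative (median -0.07). All 5 were positive in KO con minus WT con as well (median 0.05), where Adra2a differed by -0.15. Gnaz differed there by 0.33 (SE 0.16), and its interaction was 0.03 (SE 0.23). The differences in KO stress minus WT stress leaned on WT stress replicate 1. Without it Gnai2 differed by 0.21, Gnai1 by 0.30 and Gnaz by 0.19, and 1 pathway gene rather than 5 was higher at an unadjusted p under 0.05. The share of all probe sets in this direction was then 1.43% rather than 3.05%.

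Of the 10 genes of noradrenaline metabolism, Slc18a2, the vesicular monoamine transporter VMAT2, was the only one to meet the fold and p criterion in KO stress minus WT stress. It averaged 7.56 ± 0.38 in KO stress and 6.89 ± 0.36 in WT stress, with overlapping groups and a difference of 0.67 (SE 0.31, limma, adjusted p = 0.53). Without WT stress replicate 1 its difference was 0.61 (SE 0.33, limma, adjusted p = 1) and no longer met the criterion. Th, the rate-limiting enzyme of catecholamine synthesis, differed by 0.09 (SE 0.30), Dbh, which makes noradrenaline from dopamine, by 0.01 (SE 0.07) and Slc6a2, the noradrenaline transporter, by -0.08 (SE 0.07). The monoamine oxidases Maoa and Maob differed by 0.16 (SE 0.15) and 0.48 (SE 0.38), Ddc by 0.34 (SE 0.24), Pnmt by -0.12 (SE 0.08), Moxd1 by -0.10 (SE 0.26) and Cyb561 by 0.06 (SE 0.20). The probe sets of Dbh, Pnmt and Slc6a2 had low means of 5.17, 5.51 and 5.83, against a median of 6.72 over all values. Slc6a2 hardly varied among the WT con arrays (SD 0.0017). At such low values, small differences of these genes say little about their mRNA.

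The 5 remaining lists held 4, 10, 14, 7 and 4 measured genes. Among them, 1 gene had an unadjusted p under 0.05 in KO stress minus WT stress, against 9.28% of all probe sets in either direction. This was Plcb3, a phospholipase C that Gq activates, with a difference of 0.25 (SE 0.10, limma, adjusted p = 0.53). With WT stress replicate 1 left out, the difference of Plcb3 was 0.16 (SE 0.08, limma, unadjusted p = 0.0581). Prkcd, a protein kinase C isoform that is also a marker of thalamic and of central amygdala neurons, differed by 0.84 (SE 0.69). Rgs14, a regulator of Gi/o signalling, differed by -0.46 (SE 0.23) in KO stress minus WT stress and by 0.40 (SE 0.23) in WT stress minus WT con, the reverse of Adra2a, with an interaction of -0.71 (SE 0.32, limma, adjusted p = 1). Pde4a, a phosphodiesterase that degrades cyclic AMP, differed by -0.16 (SE 0.05, limma, adjusted p = 1) in KO stress minus KO con. Prkacb, a catalytic subunit of protein kinase A, differed by -0.20 (SE 0.09, limma, adjusted p = 1) in WT stress minus WT con. Of the GIRK channels, the potassium channels that Gi/o proteins open, 1 of 4 was positive in KO stress minus WT stress (Kcnj5, 0.27, SE 0.20).

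**Figure D5:**
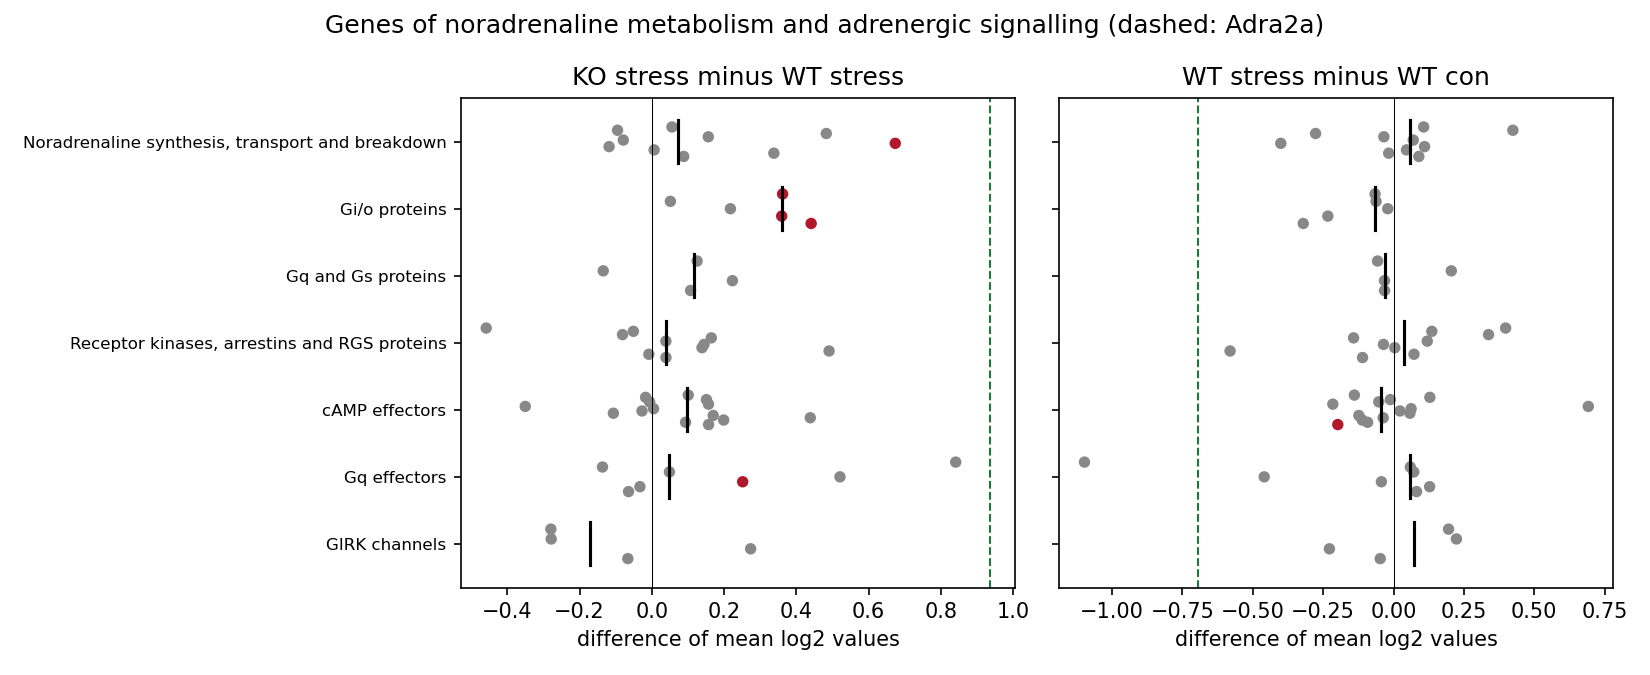
Differences of mean log2 values (horizontal axes) of 54 genes of noradrenaline metabolism and adrenergic signalling, by list (rows), in KO stress minus WT stress (left) and WT stress minus WT con (right). Points are genes (red where the unadjusted p of limma is under 0.05), black lines are list medians and the dashed line is Adra2a at 0.94 and -0.69. Adra2a lies beyond all 54 genes on the left, and on the right Prkcd lies beyond it at -1.10. Adra2a was selected on these differences, so its place among the genes is a description.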

How the data were processed

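The authors summarized probe intensities of Mouse Gene 1.0 ST arrays in ArrayAssist (ExonRMA with variance stabilization) and deposited log2 values, which were used here without further scaling. Scan dates and a genome build were not given in the sources used here. Of 28767 probe sets, 21776 have 1 symbol, 1618 several and 5373 none in the platform table. The number of arrays limits the precision.

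Groups were fitted with limma 3.58.1 (R 4.3.3), lmFit on 4 group means and eBayes, with p-values adjusted by Benjamini-Hochberg over all probe sets. The fits were tested on simulated data. Fold changes are differences of mean log2 values. Correlations were two-sided and computed in Python 3.11.15. The receptors, gene lists and tests were chosen with earlier results of these data known. The pathway fit without WT stress replicate 1 and the split of the arrays by striatal score were added after seeing the data.

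Genes named were the receptors, Slc6a4, the genes of noradrenaline metabolism, of each other pathway list those with the smallest p in 2 comparisons, leading markers, and the probe sets most like each receptor. Gnai3 and Gnao1, Dlx5, Slc32a1 and other genes beyond this rule were named after their values were seen.

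Replicate numbers run from 1 to 5 in every group, and what a shared number means is not stated. Deviations of same-numbered WT stress and WT con arrays correlated at 0.162 to 0.420, each over 0.1, the cut set here for treating arrays as pairs. No other pair of groups met this. The pairing is uncertain, since only 3 of 5 WT stress arrays correlated best with the WT con array of their own number. The same held for 3 of 5 KO con arrays with WT con. The main fits do not use the pairs. The permutations do not keep these pairs together.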

Additional observations from a re-analysis of the deposited data

Results flagged for a closer look

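In 2 of 16 groups of 5 arrays (3 receptors and Slc6a4 in 4 groups), 1 array lay far from the other 4 by Dixon's criterion, which chance exceeds in about 1 in 20 groups. For Adra2a this was WT stress replicate 1, at 6.11 against 6.68 to 6.79 in the other WT stress arrays. For Adra2c it was WT con replicate 1, at 7.95 against 6.35 to 6.81 in the other WT con arrays. These are the 2 arrays that correlate least with the rest. Without WT stress replicate 1, KO stress minus WT stress of Adra2a was 0.81 rather than 0.94, and without WT con replicate 1, WT stress minus WT con of Adra2c was 0.50 rather than 0.24.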

How the results depend on the processing

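Over 34 alternatives, no group difference of a receptor that met the study's criterion changed sign. Adra2a KO con minus WT con, which did not meet it, kept its sign in 29 of 33, with 0.04 under the striatal score as a covariate. KO stress minus WT stress of Adra2a ranged between 0.81 and 1.04 outside the fits without 1 array and met the criterion in 13 of 13. WT stress minus WT con ranged between -0.78 and -0.56 and met it in 12 of 14, missing it with the pallial score as a covariate (by its p) and with the striatal score (by its fold). Because Adra2a was selected on these values, neither count is support. Several settings change only the test and leave the difference unchanged, among them the methods' t-test and limma on the 2 groups alone. With the replicate number as a block the differences are the same by construction, 0.94 and -0.69, and the replicate block gave 271 and 98 probe sets at the criterion against 221 and 69 (75 with the block in the WT groups alone). Adra2a met the criterion in both comparisons under the block. The 54 pathway genes had 0 past the adjusted p of limma under each of the 30 alternatives that gave this count.

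Counts of probe sets at the criterion moved more. With 1 array left out they ranged between 41 and 223 for WT stress minus WT con (69 with all arrays), 11 and 82 for KO stress minus KO con (40), 8 and 87 for KO con minus WT con (14), and 107 and 562 for KO stress minus WT stress (221). Array weights gave 121, 90, 75 and 109 in that order, and leaving out both arrays that stand apart gave 175 for WT stress minus WT con, 97 for KO con minus WT con and 117 for KO stress minus WT stress. The methods' t-test gave 39 for WT stress minus WT con and 142 for KO stress minus WT stress. For KO con minus WT con, quantile normalization gave 7, limma on the 2 groups alone 28, the pallial score 29 and the striatal score 52. The pallial score gave 361 for KO stress minus WT stress, and the hypothalamic score gave 334 there and 110 for KO stress minus KO con. The cause was not tested.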
